A study of Mus musculus with 7 samples.

Results

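miR-126 is a microRNA (miRNA) of endothelial cells, and both strands of its precursor were measured here in mouse kidney as mmu-miR-126-3p and mmu-miR-126-5p. They were chosen by name, as the features of the array whose miRNA name equals one of these, and are 2 of the 696 mouse miRNAs on it. Neither strand passed the test between the arrays labelled treated and those labelled non-treated once each array was scaled by its mean over the 186 miRNAs detected on every array, and 130 of the 236 miRNAs tested (55.1%) were. Without that scaling both strands were lower on the arrays labelled treated, by about as much as the average miRNA. With Agilent's own summed signal both were higher by 0.59, past the threshold, where the median of all miRNAs tested was 0.42.

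The RNA came from kidneys of male C57BL/6 mice, 9 to 12 weeks old, with tissue collected at day 28. The study compared unilateral ureteral obstruction, a surgical model of kidney fibrosis in which the left ureter is tied off, with a sham operation in which it is only exposed. No transgene is described for either group, and pentobarbital, the anaesthetic of the operation, is the drug described. 4 arrays carry the group label non-treated, and 3, numbered replicates 1, 3 and 4, carry the label treated. Both operations are described in the record, without a statement of which of them a label refers to. The arrays labelled treated have names that begin with S, and those labelled non-treated have names that begin with C. Neither strand of miR-126 is listed in the table printed in the study. All entries there exceed 1 log2 unit in size, so this absence says nothing about smaller changes. Fold changes taken by the labels have signs opposite to those of that table. Each signed value is therefore the arrays labelled treated compared with those labelled non-treated, positive where the former are higher, and which label is obstruction was not settled. The labels do not tie arrays to animals, so p-values measure the spread between these samples, which may in part be technical.

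A miRNA gene is transcribed as a longer RNA that folds into a hairpin, from which each arm can give a short strand of its own that guides a silencing complex to messenger RNAs. miR-126 is made from an intron of Egfl7, which encodes a protein that endothelial cells secrete, and the host gene and the miRNA are expressed chiefly in endothelium. The 3p strand represses Spred1 and Pik3r2, both brakes on signalling from vascular endothelial growth factor, and also the adhesion molecule Vcam1. The 5p strand represses Dlk1, a brake on endothelial proliferation. In the kidney, endothelium lines the glomerular and peritubular capillaries.

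The array uses the older name without a letter. RefSeq, on build GRCm38.p6, lists the gene as mir-126a at chr2:26591357-26591429 on the plus strand, within the span of Egfl7. The mature 3p strand, at chr2:26591402-26591423, is shown because it is the strand with the brighter probes, and its seed (bases 2 to 8, the part that pairs with targets) is in capitals. The hairpin is shown because both strands come from it, with the 3p strand in capitals.
mmu-miR-126a-3p: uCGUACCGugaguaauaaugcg
mir-126a hairpin: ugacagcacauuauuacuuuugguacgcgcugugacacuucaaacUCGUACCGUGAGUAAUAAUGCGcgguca
The hairpin is 73 bases long, and the 3p strand begins at its base 46. Of 1738 mature mouse miRNAs in the RefSeq table, 1 has this seed, which is miR-126a-3p itself. The mature 5p strand, mmu-miR-126-5p, is given by name.

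The values are background-subtracted spot intensities from Agilent's scanner software, averaged per probe and added up over each miRNA. Both strands were called detected on all 7 arrays. Before any scaling, the intensity of miR-126-3p was 2870, 3045, 1641 and 3053 on non-treated replicates 1 to 4. It was 1083, 1461 and 968 on treated replicates 1, 3 and 4. Every array labelled treated was below every array labelled non-treated, and non-treated replicate 3 was the lowest of its group. The intensity of miR-126-5p was 26.2, 31.1, 13.9 and 27.8 on the non-treated arrays and 11.2, 13.0 and 9.63 on the treated arrays. The groups did not overlap, and non-treated replicate 3 was again nearest to the treated arrays.

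On the log2 scale the unscaled difference of miR-126-3p was -1.16, from 11.33 ± 0.43 (SD, n = 4) to 10.17 ± 0.31 (SD, n = 3), which is 0.448-fold (95% interval 0.289 to 0.696). limma gave an adjusted p of 0.0048. For miR-126-5p the unscaled difference was -1.08, from 4.57 ± 0.53 to 3.48 ± 0.22, or 0.473-fold (0.296 to 0.754), with limma's adjusted p at 0.0088. Exact permutation of the 7 arrays over their 35 splits gave a 2-sided p of 0.0571 for each strand, the smallest it can give, so it cannot fall below 0.05. Without non-treated replicate 3 the unscaled differences were -1.37 and -1.34. In the unscaled fit of all 7 arrays, 140 of the 236 miRNAs tested were lower past the threshold of 0.01 and 6 were higher.

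The whole array moved in the same way. Over the 186 miRNAs detected on every one of the 7 arrays, log2 signal averaged 7.24 ± 0.40 (SD, n = 4) for the label non-treated and 6.09 ± 0.32 (SD, n = 3) for the label treated, a difference of -1.16. The number of miRNAs called detected ran from 232 to 282 and from 193 to 214. The spike-in controls, taken here as the 4 control features with names in dmr that were well above background, differed by -0.20 (exact permutation p = 0.457) and overlapped between groups. The 5 other positive controls well above background, with names in hur and mr, differed by -0.89 (exact permutation p = 0.114) and also overlapped. The 2 sets of controls thus did not move alike. All arrays lay on 1 slide read in 1 scan, so slide and scan did not differ between groups.

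Scaling to the mean log2 signal of those 186 miRNAs removed the difference of both strands. The scaled log2 signal of miR-126-3p was 10.84, 10.80, 10.78 and 10.92 on non-treated replicates 1 to 4 and 10.78, 10.84 and 10.88 on treated replicates 1, 3 and 4. The treated arrays lay within the range of the non-treated ones, and non-treated replicate 3 no longer stood apart. The means were 10.83 ± 0.063 (SD, n = 4) and 10.83 ± 0.047 (SD, n = 3). Their difference was -0.0018 with an SE of 0.053, and the 95% interval ran from -0.13 to 0.12, or from 0.915-fold to 1.09-fold. limma's adjusted p was 0.990 (0.974 before adjustment), and the exact permutation p was 0.971.

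The scaled log2 signal of miR-126-5p was 4.06, 4.19, 3.89 and 4.14 on the non-treated arrays and 4.19, 4.02 and 4.23 on the treated arrays. The groups overlapped, with treated replicate 4 the highest array and non-treated replicate 3 the lowest. The difference was 0.076 with an SE of 0.089 and a 95% interval from -0.14 to 0.29, or from 0.909-fold to 1.22-fold. limma's adjusted p was 0.492 (0.426 before adjustment), and the exact permutation p was 0.457. Thus 0 of the 2 strands passed limma's adjusted p below 0.01, while 55 of the 236 miRNAs tested (23.3%) were higher and 75 (31.8%) were lower on the arrays labelled treated. Neither strand had an unadjusted p under 0.05. The intervals refer to the change relative to the average miRNA.

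**Figure D1:**
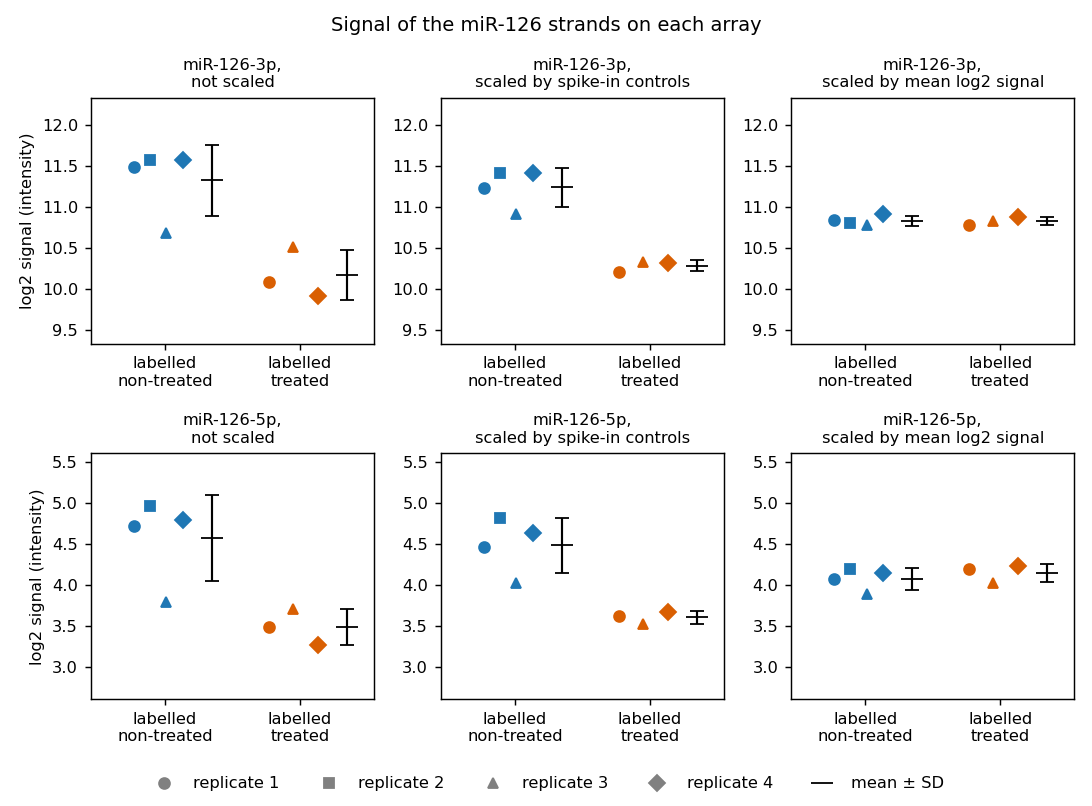
log2 signal of miR-126-3p (top) and miR-126-5p (bottom) on each array, without scaling, scaled by spike-in controls and scaled by the mean over the 186 miRNAs. Each symbol is 1 array, black marks give mean ± SD (n = 4 and n = 3), and every panel spans the same range of log2 units. The groups are apart in the left and middle columns and overlap in the right column.

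Among the 236 miRNAs tested, the scaled change of miR-126-3p was the 6th smallest in size and stood at place 133 from the most negative. That of miR-126-5p was the 31st smallest in size and stood at place 150. The residual SD of miR-126-3p, its spread within groups, was the 17th smallest of 236, at percentile 7.20, and that of miR-126-5p was at percentile 44.9. The 3p strand thus varied little among arrays of a label, while the spread of the dimmer 5p strand was near the middle of all miRNAs.

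The size and the sign of the difference depended on the scaling. When the arrays were scaled to the spike-in controls, which does not remove a shift shared by all miRNAs, miR-126-3p differed by -0.96, or 0.515-fold, with limma's adjusted p at 1.7e-04. miR-126-5p then differed by -0.88, or 0.543-fold, with an adjusted p of 0.0011. The groups did not overlap for either strand. With this scaling 162 of the 236 miRNAs tested were lower past the threshold and 17 were higher, so a lower call was the common outcome. Without non-treated replicate 3 these differences were -1.07 and -1.03. Scaling by the mean over all 696 miRNAs gave -0.51 for miR-126-3p, with groups that did not overlap and limma's adjusted p at 0.012, which missed 0.01. For miR-126-5p it gave -0.43, with groups that overlapped and an adjusted p of 0.035. Scaling by the 75th percentile of those detected on all arrays gave -0.25 and -0.17. Scaling by the 75th percentile of all miRNAs turned the sign to 0.25 and 0.32. Agilent's own summed signal, with the upper quartile of all features as the scale, gave 0.59 for both, with limma's adjusted p at 0.0034 and 0.0049. There 104 of the 236 miRNAs tested were higher past the threshold and 40 were lower.

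The median change of all miRNAs tested moved along with these values. It was -0.08 with the main scaling, -0.97 with the spike-in controls, -1.14 without scaling, 0.11 with the 75th percentile of all miRNAs and 0.42 with Agilent's summed signal. Relative to that median, miR-126-3p was at 0.08, 0.02, -0.02, 0.13 and 0.17 under the same settings. Across the 9 scalings drawn in the plot of differences by scaling, its place among the 236 ran from 110 to 139. In each of these scalings miR-126-3p therefore lay near the middle of the miRNAs. Outside these 9, normexp background correction with an offset of 50 put miR-126-3p at place 78, at -0.13 relative to the median. The place of miR-126-5p in the 9 scalings ran from 130 without scaling to 166 with quantile normalization, where it was 0.40 above the median.

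**Figure D2:**
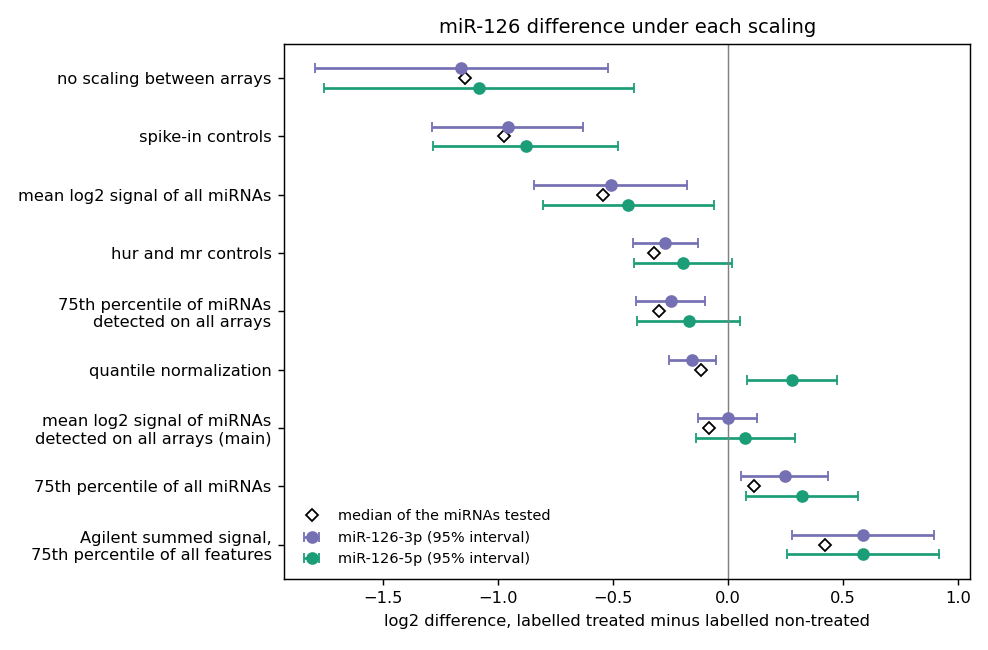
Difference of miR-126-3p and miR-126-5p, in log2 units with treated minus non-treated by label, under 9 scalings of the arrays, with 95% intervals from limma and the median of the miRNAs tested as open diamonds. Both strands follow the diamonds from -1.14 without scaling to 0.42 with Agilent's summed signal, and quantile normalization is the setting in which the strands lie farthest apart.

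Quantile normalization, which gives all arrays the same distribution of signals, was the scaling in which the strands parted most, with miR-126-3p at -0.15 and miR-126-5p at 0.28. limma's adjusted p was 0.017 and 0.022, neither below 0.01. It set miR-126-3p to 10.79 on each treated array, since the miRNA held the same rank on all of them.

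The ratio of the strands within an array does not depend on any scaling by 1 factor per array. Its absolute size also reflects how well each probe binds, so it is read here only for its change between arrays. The log2 signal of miR-126-3p minus that of miR-126-5p was 6.77, 6.61, 6.89 and 6.78 on the non-treated arrays and 6.59, 6.81 and 6.65 on the treated arrays. The groups overlapped, with means of 6.76 ± 0.11 (SD, n = 4) and 6.69 ± 0.11 (SD, n = 3). The difference was -0.078 with an SE of 0.087 and a 95% interval from -0.30 to 0.15 (exact permutation p = 0.514). A change in the strand ratio was thus not detectable in these 7 arrays with this processing. With normexp background correction and an offset of 50, which pulls dim signals together, the difference was -0.19 (95% interval -0.27 to -0.11), and the groups did not overlap (exact permutation p = 0.0571). Quantile normalization, which is not a scaling by 1 factor per array, also moved the strands apart, to -0.15 for miR-126-3p and 0.28 for miR-126-5p.

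**Figure D3:**
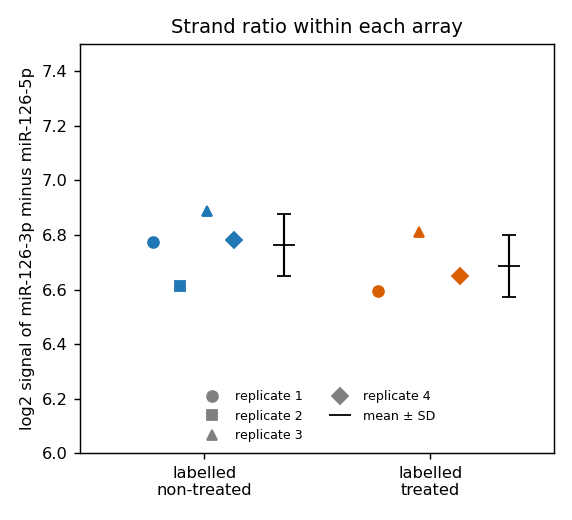
log2 signal of miR-126-3p minus that of miR-126-5p within each array, by label, with mean ± SD beside the points (n = 4 and n = 3). The treated arrays, between 6.59 and 6.81, overlap the non-treated arrays, between 6.61 and 6.89.

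Each strand was read by 2 probes with 10 spots each. For miR-126-3p, all 10 spots of both probes were well above background on every array. The scaled log2 difference was -0.054 for probe A_54_P2285 (exact permutation p = 0.286) and 0.031 for probe A_54_P2286 (exact permutation p = 0.629). The signs differed and both changes were within the spread of the arrays. For miR-126-5p, probe A_54_P1035 had all 10 spots well above background on every array and differed by 0.12 (exact permutation p = 0.286). The other 5p probe, A_54_P4367, had between 0 and 4 of its 10 spots well above background and none on the treated arrays, so no change is given for it. It carried between 10.4% and 16.1% of the summed 5p signal. The coefficient of variation over spots ran from 2.98% to 21.5% for the 3p probes and from 9.03% to 32.3% for A_54_P1035, so the 5p value is the less precise.

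**Figure D4:**
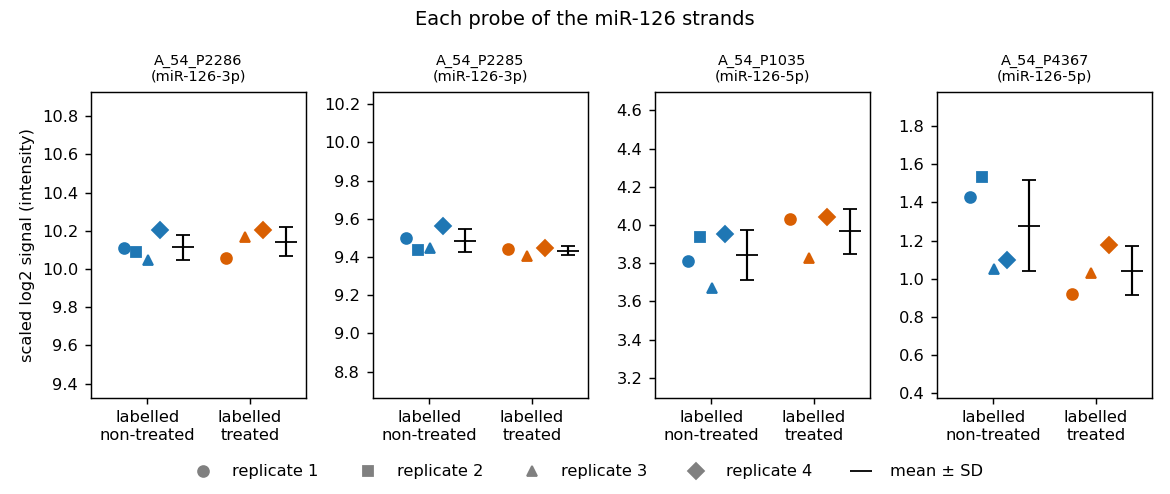
Scaled log2 signal of the 4 miR-126 probes on each array, with mean ± SD by label (n = 4 and n = 3). Each panel spans the same range of log2 units but is set at its own level. The groups overlap for all 4 probes, and A_54_P4367 is at or near background.

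The strands were then set beside lists of miRNAs known from other cell types. In bulk tissue, fewer cells of a type and less RNA per cell cannot be told apart. Each value below is the list's median scaled log2 difference, against -0.08 for all miRNAs tested. Counts past the threshold stand against 23.3% higher and 31.8% lower of all 236 miRNAs tested. Of 9 tested miRNAs of kidney tubule epithelium, 6 were higher, 1 was lower and 2 did not pass, with a median of 0.90. They ranged from 3.24 for miR-192 to -0.56 for miR-204. The median of this list was below 0 without scaling (-0.25) and with the spike-in controls (-0.054), but stayed 0.89 to 1.07 above that of all miRNAs tested in each of the 9 scalings. With the spike-in controls 2 miRNAs of this list were higher and 3 lower, where 17 and 162 of all 236 were.

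All 3 miRNAs of the stroma list on the array, miR-199a-3p, miR-199a-5p and miR-214, which are abundant in fibroblasts, were lower on the arrays labelled treated, with a median of -2.51. All 6 of the white blood cell list were lower, with a median of -1.89. They ran from -2.52 for miR-342-3p to -1.76 for miR-150. miR-143 and miR-145, which are made by smooth muscle cells and pericytes, were lower by -1.05 and -0.82. The red blood cell miRNAs miR-144 and miR-451 were higher by 2.61 and 1.65. The medians of these 4 lists kept their sign in each of the 9 scalings. Of the 4 striated muscle miRNAs, 2 were tested and neither passed (miR-1 at -0.72, and miR-133b at -0.91 with a treated mean of 2.60 near the floor of 2.55). The part of these cell types in the miR-126 values was not tested.

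The signal of a strand over the summed signal of a list within the same array is also free of any scaling by 1 factor per array. Relative to the tubule list, miR-126-3p was lower on the arrays labelled treated by a log2 difference of -1.29. Relative to the stroma list it was higher by 2.53, to the white blood cell list by 2.16 and to the smooth muscle and pericyte list by 1.03. Relative to the red blood cell list it was lower, at -1.67. In these 5 ratios the groups did not overlap, and the exact permutation p was 0.0571 in each, the smallest it can be. For miR-126-5p the same 5 ratios were -1.22, 2.60, 2.24, 1.11 and -1.59, also without overlap. Each ratio is the scaled change of the strand less that of the list's summed signal, which was 1.29 for tubule and -2.53 for stroma. Since both strands were near 0 after scaling, these ratios mainly restate how the lists changed. Any miRNA with a scaled change near 0 would give similar ratios, so they show nothing particular to miR-126. Relative to the striated muscle list, miR-126-3p was at 0.92 with overlapping groups (exact permutation p = 0.171). miR-126-5p was at 0.996 there, without overlap (exact permutation p = 0.0571). Relative to the list of other miRNAs of endothelium or vessel growth, described below, miR-126-3p was higher by 0.23 and miR-126-5p by 0.30. The groups did not overlap in these 2 ratios either (exact permutation p = 0.0571 in each). A summed signal weighs bright miRNAs most, in this list among others miR-23a at -0.995, miR-24 at -0.60 and let-7f at 0.13. The median change of the list was -0.13, against -0.08 for all miRNAs tested. The part of single miRNAs in the sum was not tested.

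**Figure D5:**
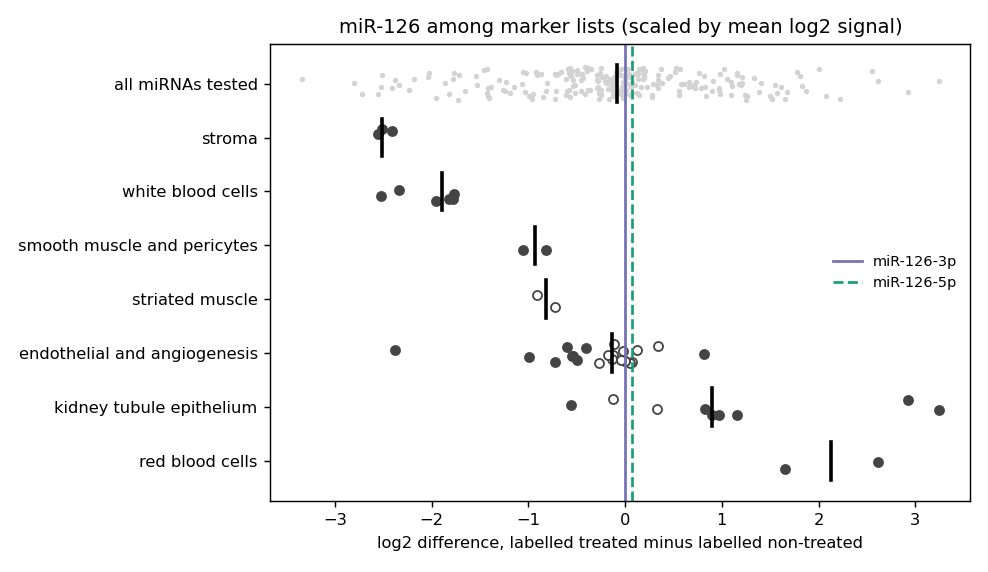
Scaled log2 difference by label, treated minus non-treated, of the miRNAs of 7 lists and of all 236 miRNAs tested (grey, spread vertically for legibility). Filled points passed limma's adjusted p below 0.01, open points did not, black bars are medians, and the vertical lines mark miR-126-3p (-0.0018) and miR-126-5p (0.076). The miR-126 lines lie between the medians of the stroma and white blood cell lists on the left and those of the tubule and red blood cell lists on the right.

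The list of other miRNAs of endothelium or with known roles in vessel growth holds 23, none of them specific to endothelium, and 22 were tested. 1 was higher, 8 were lower and 13 did not pass limma's threshold, with a median of -0.13 against -0.08 for all miRNAs tested. Of all miRNAs tested, 23.3% were higher and 31.8% were lower, so the lower members of the list were near that background, while only 1 of the 22 was higher. The test admits miRNAs detected on every array of only 1 label. Restricted to the 186 miRNAs detected on all arrays, 55 were higher and 56 were lower. Of the 19 members of the list among them, 1 was higher and 6 were lower. miR-221, which restrains vessel growth through Kit, was higher by 0.81. Its cluster partner miR-222 was at 0.34 with an adjusted p of 0.014.

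The lower miRNAs of this list included 3 of 1 cluster, miR-23a at -0.995, miR-27a at -0.72 and miR-24 at -0.60, of which miR-23 and miR-27 are known to promote sprouting. The paralogous cluster was at -0.27 for miR-23b (adjusted p = 0.013) and -0.0033 for miR-27b (adjusted p = 0.986). miR-132, which angiogenic growth factors induce in endothelium, was at -2.38, with its treated mean of 2.79 near the floor of 2.55. miR-139-5p was at -0.50, and the cluster of miR-322 and miR-503 at -0.40 and -0.54, with the treated mean of miR-503, 2.71, also near the floor. Of the miR-17-92 cluster, miR-18a was lower by -0.55, while miR-19a (0.045), miR-19b (0.0016), miR-20a (-0.14) and miR-92a (-0.039) did not pass. The sign of miR-221 turned without scaling and with the spike-in controls, and those of miR-139-5p and miR-322 turned with Agilent's summed signal. miR-23a, miR-27a, miR-24, miR-132, miR-18a and miR-503 were below 0 in each of the 9 scalings.

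Among the remaining members of the list, let-7f was at 0.13, miR-10b at 0.071, miR-10a at -0.019, miR-130a at -0.13 and miR-210, which hypoxia induces, at -0.17. None of these passed the threshold. miR-296-5p was at the floor on every treated array, so no difference is given for it. The count of this list past the threshold rose to 9 higher and 1 lower with Agilent's summed signal, and was 0 higher and 20 lower with the spike-in controls.

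The miRNAs with the array-to-array pattern most like each strand were named by the root mean square difference of their centred log2 signals over the 7 arrays, in which any scaling cancels. For miR-126-3p these were let-7a (0.056), miR-2135 (0.057), miR-34a (0.060), miR-1839-5p (0.064) and let-7b (0.067), against a median of 0.33 over the 185 other miRNAs detected on all arrays. For miR-126-5p they were miR-19a (0.069), miR-16 (0.071), miR-98 (0.085), let-7a (0.095) and miR-128 (0.099), against a median of 0.36. The strands differed from each other by 0.10, which made miR-126-5p the 18th nearest to miR-126-3p, and miR-126-3p the 6th nearest to miR-126-5p. Values this small are close to the spread between replicate arrays, so the order of these neighbours is not resolved.

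The arrays lay in 2 rows of the slide, and both labels were present in each. In row 1, with 1 treated array and 2 non-treated ones, the scaled difference was -0.036 for miR-126-3p and 0.062 for miR-126-5p. In row 2, with 2 arrays of each label, it was 0.0077 and 0.11. The unscaled differences were -1.45 and -1.35 in row 1 and -0.91 and -0.81 in row 2, so both strands were lower before scaling in each row.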

How the data were processed

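Kidney RNA carrying Cy3 was read on Agilent miRNA arrays of 1 colour. For every array the authors deposited a file from Agilent Feature Extraction 10.7.3.1, whose processed spot signal is a linear, background-subtracted intensity with no normalization between arrays. The labels name the RecoverAll kit for extraction, whereas the study's methods name the miRNeasy kit for tissue and RecoverAll for fixed human kidney samples. The deposited value table holds intensities of 1981 probes without log or scaling for 6 arrays, and error estimates in place of them for treated replicate 4. Its column medians were 0.445, 0.532, 0.470 and 0.346 for non-treated replicates 1 to 4 and 0.322, 0.276 and 1.00 for treated replicates 1, 3 and 4. It was used only as an alternative, and the arrays have no depth in reads: their number limits the precision.

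Each array holds 13920 spots of 1937 probes for 696 miRNAs, and 0 spots were saturated. Spots without outlier flags were averaged per probe, summed per miRNA, scaled by the log2 mean over 186 miRNAs that all arrays detected, raised to a floor of 5.85 and taken as log2. The study's methods scale to the mean of each array. Its printed sizes of change did not follow the main scaling, which gave 0.90 for miR-200b and -2.51 for miR-214. They lay nearer to those with Agilent's summed signal, 1.49 and -1.92. With that setting both strands of miR-126 were at 0.59, past the threshold. How the printed values were scaled was not tested. limma 3.58.1 in R 4.3.3 was fitted to the 236 miRNAs that every array of 1 label or of both detected, with Benjamini-Hochberg adjustment and a threshold of 0.01. Exact permutation tests were 2-sided. The methods' t-test, run on these values, called 130 of 234 miRNAs at the methods' threshold and 118 after Benjamini-Hochberg adjustment, and neither strand in either case.

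Tested on simulated data, the steps recovered 52 of 60 log2 changes of 1.50 for this comparison, with 236 miRNAs in the fit and 1 false call. Between arrays sharing a label, the SD of log2 differences was compared with that expected from the spots alone. It was 2.59 to 3.42 times as large for non-treated pairs and 1.34 to 2.01 times for treated pairs. No array was therefore counted as a copy of another, which does not show that the arrays came from separate animals. Named are both strands, all miRNAs of the lists that a result turns on, and the 5 miRNAs nearest to each strand in pattern. The members, lists and tests were chosen with earlier results of these data known. Other scalings, signal columns, choices of probe, detection filters and floors were tried, as were a block for replicate number and the removal of single arrays. Alternatives chosen after seeing the data were the row of the slide, the positive controls named hur and mr as a scale, and removal of non-treated replicate 3 without scaling or with the spike-in controls.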

Additional observations from a re-analysis of the deposited data

Results flagged for a closer look

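Non-treated replicate 3 lay far below its group in the unscaled log2 signal of miR-126-3p. It was 10.68 there and 11.49 to 11.58 on the others, and the gap to the nearest array was 0.900 of the whole range, above the limit of 0.829 for 4 samples. The average log2 signal over miRNAs that all arrays detected showed the same pattern, at 6.65 on this array and 7.40 to 7.52 on the others (0.859 of the range). Chance alone marks 5% of such groups. Neither strand stood apart on this array after scaling.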

How the results depend on the processing

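The scaled difference of miR-126-3p (-0.0018, not past the threshold) changed sign under the upper-quartile scaling of all miRNAs (0.25), with Agilent's summed signal (0.59, past the threshold), with the brightest probe alone (0.031), with the deposited value table (0.093) and in slide row 2 alone (0.0077). It passed the threshold under the upper-quartile scaling of miRNAs that all arrays detected (-0.25), the spike-in controls (-0.96), no scaling (-1.16), normexp with an offset of 50 (-0.14) and the hur and mr controls (-0.27). Leaving out 1 array at a time gave -0.045 to 0.027.

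The difference of miR-126-5p (0.076) changed sign with the mean of all miRNAs (-0.43), the upper quartile of miRNAs that all arrays detected (-0.17), the spike-in controls (-0.88), no scaling (-1.08), the deposited value table (-0.15) and the hur and mr controls (-0.19). It passed the threshold with the spike-in controls, without scaling and with Agilent's summed signal (0.59). Leaving out 1 array at a time gave -0.0090 to 0.14, below 0 without non-treated replicate 3. The strand ratio difference (-0.078) was 0.25 with the deposited value table, -0.19 without overlap of the groups with normexp, and -0.14 to -0.032 with 1 array left out.

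The count of miRNAs past the threshold (130) was 86 with the deposited value table and 116 to 146 with 1 array left out. The split of higher and lower was 34 and 106 with the mean of all miRNAs, 50 and 95 with the 75th percentile of detected miRNAs, 76 and 47 with that of all miRNAs, 17 and 162 with the spike-in controls, 6 and 140 without scaling, 104 and 40 with Agilent's summed signal, and 51 and 105 with the hur and mr controls. Of the endothelial and angiogenesis list, the 1 higher miRNA became 0 with the mean of all miRNAs, the spike-in controls and no scaling, 2 with the 75th percentile of all miRNAs and quantile normalization, and 9 with Agilent's summed signal. The 8 lower became 14, 20 and 19 in the first 3 of these, 4 with the 75th percentile of all miRNAs and 1 with Agilent's summed signal. With 1 array left out the list gave 1 to 2 higher (2 without non-treated replicate 3) and 6 to 8 lower.

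With the replicate number as a block, miR-126-3p was at -0.013, miR-126-5p at 0.12, the count at 108 and the lower miRNAs of the list at 4. The numbers do not pair the arrays: deviations of same-numbered arrays correlated at -0.056, -0.064 and 0.18, and 1 of 3 was nearest to its own number. The cause of these shifts was not tested.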
